A study of Tigriopus californicus with 9 samples.

Results

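The 4 hybrid libraries of *Tigriopus californicus* were set against the 5 parental libraries of the same series, so 4 of 9 libraries are hybrids. Each library was made from polyA RNA of a pool of 400 to 500 animals of all developmental stages, kept in a 20 °C water bath for 2 h before RNA extraction. The SDf x SCNm hybrids (n = 2) descend from San Diego mothers and Santa Cruz fathers, and the SCNf x SDm hybrids (n = 2) from Santa Cruz mothers and San Diego fathers. Both had been mated among themselves to hybrid generation 3. The parents were San Diego (SD, n = 3) and Santa Cruz (SCN, n = 2) copepods from laboratory beakers. Every pool mixes stages, and a hybrid pool also mixes many recombinant nuclear genomes, so a value is an average over animals. In such pools, fewer cells of a type and less RNA per cell cannot be told apart. For both SCNf x SDm libraries a second label gives the other direction of the cross; their titles set the group here.

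Values were RPKM, reads scaled by contig length and by the reads of the library, for 13758 features, each a pair of SD and SCN contigs or a mitochondrial gene. The hybrid mean was compared with the midparent, which is halfway between the group means of SD and of SCN in log2(RPKM + 1), and the single hybrid values with the parental range. A feature lay outside that range where its 4 hybrid values were all above, or all below, all 5 parental values. There were 1012 such features of 13758 (7.36%), 806 above and 206 below. The gap is the distance on the log2(RPKM + 1) scale between the lowest hybrid and the highest parent, or between the highest hybrid and the lowest parent.

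*Tigriopus californicus* lives in splash pools along the Pacific coast, and its populations have diverged strongly in both nuclear and mitochondrial genomes. Mitochondria pass through the mother, and the respiratory chain is built from subunits of both genomes, so later hybrid generations combine nuclear alleles of one population with mitochondria of the other. Copepods grow by moulting: the chitin-based cuticle is taken down and rebuilt at each moult, and genes of cuticle formation follow that cycle.

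The libraries differed in depth. Reads recovered from the steps of the RPKM values numbered about 4541000 to 13868000 in hybrids against 902000 to 15938000 in parents. SD replicate 3 and SCN replicate 2, the shallowest, had 0 reads in 7.55% and 8.17% of features, and the other libraries in less than 1%. No sequencing run held both hybrids and parents, so the effects of run and of hybrid origin cannot be told apart anywhere in these data. The labels do not state whether replicates were separate cultures, so a p-value measures spread among these libraries alone, which may be technical.

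Hybrids lay above the parents far more often than below them. All 4 hybrid values exceeded all 5 parental values in 806 features, 5.86% of those measured, and lay under all of them in 206, or 1.5%. By limma, fitted over all 13758 features with Benjamini-Hochberg adjustment, 110 features (0.8%) passed an adjusted p of 0.05: 109 (0.792%) rose above the midparent and 1 (0.00727%) fell below it. Of the 109, 97 lay above all 5 parental values, while none of the 206 features below the parental range passed. An unadjusted p under 0.05 was reached by 2268 features (16.5%). The calls depended on which SD libraries were kept. Without SD replicate 1 no feature passed. Without SD replicate 2 there were 96 calls, 59 of them among the 110, and without SD replicate 3 there were 33, 28 of them among the 110. Calls also moved widely when a SCN or hybrid library was left out. Such a fit keeps 1 library in a group, so its counts are not given here and enter only the ranges over left-out libraries given below.

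Gaps were wider above the parents than below. The median gap was 0.217 above, with 152 features over 0.5 and 33 over 1, the widest being 1.78 in Contig33010, a hypothetical protein, and 1.77 in the unnamed Contig5183. Below the parents the median gap was 0.0927, with 5 features over 0.5 and none over 1. Close to the border, 218 features above and 107 below had a gap of at most 0.1, and 320 above and 139 below missed by at most 0.1. Ribosomal protein RpL27 (SD_Contig47685) was just inside the list, with a lowest hybrid value of 3342 RPKM against a highest parental value of 3341 RPKM. The mitochondrial gene mtDNA_nad6 was just outside it, with 4529 RPKM in the lowest hybrid against 4607 RPKM in the highest parent.

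**Figure D1:**
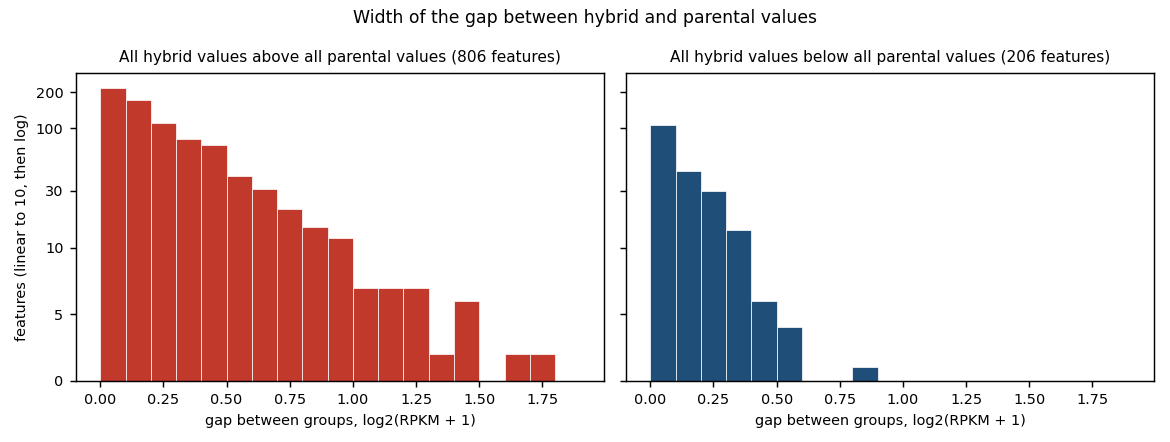
Number of features (vertical axis, linear up to 10 and logarithmic above) by the width of the gap between the 4 hybrid and the 5 parental values, in log2(RPKM + 1), for features above all parents (left, 806) and below all parents (right, 206). The left distribution reaches past 1.5, while on the right 1 feature lies beyond 0.6.

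The balance of higher and lower features moved with the scaling of the libraries. The median feature lay 0.15 above the midparent as deposited, and at -0.07 after quantile normalization and 0.00 after median-of-ratios scaling. Features above and below the parental range were 3.76% and 4.37% after quantile normalization, 4.19% and 2.85% after median-of-ratios scaling, and 3.81% and 1.7% with the libraries thinned to 1 depth. Features with hybrids above therefore outnumbered those below in each of these settings except quantile normalization. The limma calls were 154 above and 16 below after quantile normalization and 95 above and 0 below after median-of-ratios scaling.

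Genes of the exoskeleton had the largest share above the parents among the lists of 20 or more members. Of 90 features named for cuticle proteins, chitin enzymes or chitin binding, 30 (33.3%) lay above all parental values and 0 below, beside 5.86% and 1.5% of all features. Of these members 11 rose by limma and 0 fell, 84 of 90 were above the midparent, and the median member was 1.15 above it on the log2 scale, against 0.15 for all features. Obstructor (Contig19526), which in Drosophila organizes chitin in the cuticle, had 180.4 and 174 RPKM in the SDf x SCNm libraries and 178 and 404 in the SCNf x SDm libraries, against 32.4, 15.4 and 8.14 in SD and 61.1 and 13.9 in SCN. All 4 hybrid libraries lay far above the highest parent, SCN replicate 1, and SCNf x SDm replicate 2 was highest of all. Obstructor rose 9.60-fold over the midparent (log2 3.26, SE 0.50, adjusted p = 0.0237 by limma), at 234 ± 113 RPKM in hybrids (SD, n = 4) against 18.6 ± 12.4 in SD (n = 3) and 37.5 ± 33.4 in SCN (n = 2).

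Structural cuticle proteins had the widest gaps among features with an informative name. The cuticle protein Contig220 had 2150.1 and 3436 RPKM in the SDf x SCNm libraries and 4687 and 4078 in the SCNf x SDm libraries, against 487, 639 and 70.9 in SD and 673 and 619 in SCN. SD replicate 3 stood well below the other parents, and even the lowest hybrid was well above the highest parent. Its difference did not pass (log2 3.01, SE 0.59, adjusted p = 0.0502 by limma). A shorter cuticle protein contig (Contig31846) had 149 and 148 RPKM in the SDf x SCNm libraries and 160.2 and 244 in the SCNf x SDm libraries, against 27.2, 46.9 and 9.06 in SD and 30.3 and 10.9 in SCN, again with no overlap, and it rose (log2 3.01, SE 0.47, adjusted p = 0.0237). Cuticle protein 7 (Contig78214) had 2717 and 2801 RPKM in the SDf x SCNm libraries and 3392 and 2742 in the SCNf x SDm libraries, against 223, 424 and 23.5 in SD and 971 and 425 in SCN. The hybrid values were close together while the parental ones spread widely, and it did not pass (log2 3.31, SE 0.72, adjusted p = 0.0699). Larval cuticle protein lcp-17 (Contig977cap), named for a structural protein of insect larval cuticle, had 339 and 328 RPKM in the SDf x SCNm libraries and 217 and 296 in the SCNf x SDm libraries, against 36.1, 45.6 and 11.6 in SD and 90.9 and 45.6 in SCN, and it rose (log2 2.77, SE 0.40, adjusted p = 0.0237).

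Other members that rose act in cuticle structure and chitin handling. They included the cuticle proteins Contig32330 (log2 3.01, 833 to 2566 RPKM in hybrids against 68.1 to 685 in parents), Contig23995 (2.40), Contig23357 (2.39) and cuticle protein 19 (Contig80333, 2.29). Chitinase-3-like protein 1 (Contig10608, 3.06), of a family of chitin-binding and chitin-cutting proteins, and a peritrophin 3-a1 precursor (Contig3246cap, 1.89), a chitin-binding protein, also rose. Chitin deacetylase (Contig22373), which trims acetyl groups from chitin, had 22.9 to 44.4 RPKM in hybrids against 0.980 to 13.2 in parents without passing (adjusted p = 0.0889). By name, 24 of 49 (49.0%) cuticle or cuticular proteins lay above all parents, against 2 of 17 (11.8%) chitinases and 2 of 6 chitin deacetylases. The share of all features was 5.86%. These name groups were chosen after the values were seen. Reads that fit several near-identical cuticle proteins could be split between them, so single members are uncertain.

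SCN replicate 1 came nearest to the hybrids in this list. Its list median was 5.97 on the log2(RPKM + 1) scale, just under the hybrids, the highest of which had 6.33, while the other parents had 4.03 to 5.04. It was the highest parent in 26 of the 30 members above the range. Without it 46 members lay outside the range, which fewer parental values then bound. Calls among the members are not given for fits without a SCN library, since these keep 1 library in that group. Members outside the range had a median contig length of 355.5 bases against 685.5 for the other members. With the trend on length taken out of each library, an alternative added after the data were seen, 28 members lay above the parents and 6 passed.

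**Figure D2:**
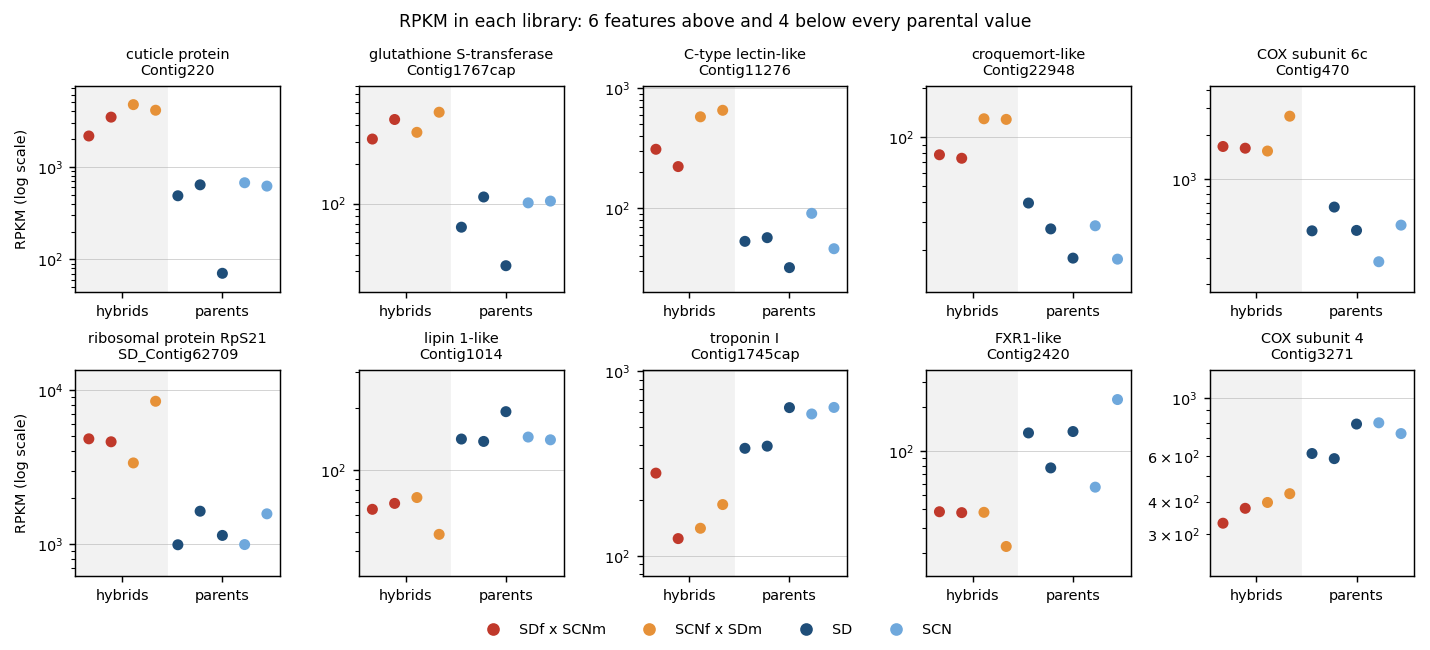
RPKM (logarithmic axis) in each library for 6 features above and 4 below every parental value, with the 4 hybrid libraries on the grey ground at the left of each panel and the 5 parental libraries at the right, coloured by group. In the cuticle protein panel the hybrids run from 2150.1 to 4687 RPKM and the parents from 70.9 to 673 RPKM, and in no panel do the 2 sets of points overlap.

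Glutathione transferases and other antioxidant genes were the second group, by number of calls, above the parents. Of 61 members 13 (21.3%) lay above all parental values and 0 below, beside 5.86% and 1.5% of all features. By limma 5 members rose, beside 0.792% of all features. The median member was 0.39 above the midparent against 0.15 for all features. Glutathione S-transferase Contig1767cap, of an enzyme family that joins glutathione to reactive compounds, had 314 and 444 RPKM in the SDf x SCNm libraries and 353 and 505 in the SCNf x SDm libraries, against 65.7, 112 and 33.2 in SD and 101 and 104 in SCN. The hybrids formed a narrow band well above all parents, among which SD replicate 3 was lowest. It rose 4.89-fold (log2 2.29, SE 0.36, adjusted p = 0.0239 by limma), with a hybrid mean of 404 ± 86.5 RPKM (SD, n = 4) against 70.4 ± 39.7 in SD (n = 3) and 103 ± 2.29 in SCN (n = 2).

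A second glutathione S-transferase (Contig10970) had 415 and 587 RPKM in the SDf x SCNm libraries and 626 and 1290.0 in the SCNf x SDm libraries, against 139, 64.9 and 29.5 in SD and 198 and 27.7 in SCN, and rose (log2 3.24, SE 0.60, adjusted p = 0.0447 by limma). SCN replicate 1 was its highest parent and SCNf x SDm replicate 2 stood above the other hybrids. Superoxide dismutase (Contig12397), which converts superoxide to hydrogen peroxide, had 146 to 178 RPKM in hybrids against 34.2 to 89.6 in parents and rose by 1.42 on the log2 scale. Microsomal glutathione S-transferase 1 (Contig2056), a membrane-bound form, had 386 to 732 RPKM in hybrids against 126 to 268 in parents (adjusted p = 0.0495), and isoform D (Contig1287) had 766 to 1204 against 266 to 494 (adjusted p = 0.0495). Mitochondrial superoxide dismutase (Contig6365) lay above the range at 336 to 487 RPKM in hybrids against 189 to 248 in parents but did not pass (adjusted p = 0.141). Of 27 features in the name group of glutathione S-transferases, chosen after the values were seen, 9 (33.3%) lay above all parents, beside 5.86% of all features. With the length trend removed 11 members of the list were outside and 0 passed. With median-of-ratios scaling these counts were 8 and 2. Over all features 4.3% lay above the parents with the length trend removed and 4.19% with median-of-ratios scaling.

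Of 52 genes of immune recognition 10 (19.2%) lay above all parental values and 0 below, beside 5.86% and 1.5% of all features, 4 rose, and the median member was 0.33 above the midparent. The lectin precursor Contig11276, a C-type lectin and so one of the sugar-binding proteins, had 310.0 and 223 RPKM in the SDf x SCNm libraries and 577 and 653 in the SCNf x SDm libraries, against 53.3, 57.2 and 32.3 in SD and 91.1 and 46.3 in SCN. Both SCNf x SDm libraries were higher than both SDf x SCNm libraries, and all 4 were above every parent. It rose 7.21-fold over the midparent (log2 2.85, SE 0.30, adjusted p = 0.0202 by limma). A croquemort-like protein (Contig22948), named for a Drosophila scavenger receptor that takes up dying cells, had 77.8 and 74.0 RPKM in the SDf x SCNm libraries and 129.7 and 129 in the SCNf x SDm libraries, against 39.2, 27.1 and 17.9 in SD and 28.4 and 17.6 in SCN. The crosses again formed separate pairs above the parents, and the gene rose 3.93-fold (log2 1.97, SE 0.29, adjusted p = 0.0237).

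The other calls of the list were a lectin, C-type lectin domain family 4 member m (Contig94595, log2 2.36), and a spatzle protein (Contig20272, log2 1.82), whose Drosophila namesake is the ligand of the Toll receptor. All 3 features named spatzle, a name group chosen after the values were seen, lay above all parents, beside 5.86% of all features. Contig20272 had 11.5 to 21.8 RPKM in hybrids against 2.06 to 5.60 in parents, Contig1057cap had 19.6 to 26.2 against 1.53 to 10.8, and Contig1060cap had 13.1 to 14.7 against 1.26 to 7.33. Contig1057cap and Contig1060cap did not pass (adjusted p = 0.0789 and 0.0721 by limma). The median member of the list was 0.04 above the midparent after quantile normalization and 0.01 without SCN replicate 2, a library whose list median was 4.12 against 4.78 to 5.05 in the other parents. The list medians of the hybrids, 4.99 to 5.17, overlapped those of the parents.

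Cytosolic ribosomal proteins had many members outside the parental range and few calls. Of 69 members 18 (26.1%) lay above all parents and 0 below, beside 5.86% and 1.5% of all features. By limma 1 member rose, beside 0.792% of all features. RpS21 (SD_Contig62709), a protein of the small subunit, had 4812 and 4605 RPKM in the SDf x SCNm libraries and 3358 and 8427 in the SCNf x SDm libraries, against 991, 1635 and 1139 in SD and 994 and 1572 in SCN. Its lowest hybrid was SCNf x SDm replicate 1 and its highest parent SD replicate 2, with no overlap, and it rose 4.04-fold (log2 2.01, SE 0.38, adjusted p = 0.0474 by limma). RpL37a (SD_Contig61723), of the large subunit, had 5246 and 3535 RPKM in the SDf x SCNm libraries and 2568 and 4958 in the SCNf x SDm libraries, against 951, 1573 and 1224 in SD and 859.6 and 1274 in SCN, and did not pass (adjusted p = 0.0547). RpS26 (SD_Contig70460) had 3470.3 to 5121 RPKM in hybrids against 1157 to 1812 in parents, and RpL24 (SD_Contig42791) had 2214 to 3438 against 988 to 1265.

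The hybrid libraries were uneven in this list. Its median on the log2(RPKM + 1) scale was 11.28 and 10.64 in SDf x SCNm and 10.37 and 11.07 in SCNf x SDm, against 10.18, 10.34 and 10.42 in SD and 10.23 and 10.91 in SCN. SCNf x SDm replicate 1 was the lowest hybrid in 17 of the 18 members outside, and list medians of hybrids and parents overlapped. The number outside was 8 with median-of-ratios scaling, 12 with quantile normalization and 12 with the length trend removed. Over all features the shares above were 4.19%, 3.76% and 4.3% in these settings. RpS21 passed in 8 of 25 alternatives, and its call was lost with median-of-ratios scaling and with the length trend removed.

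**Figure D3:**
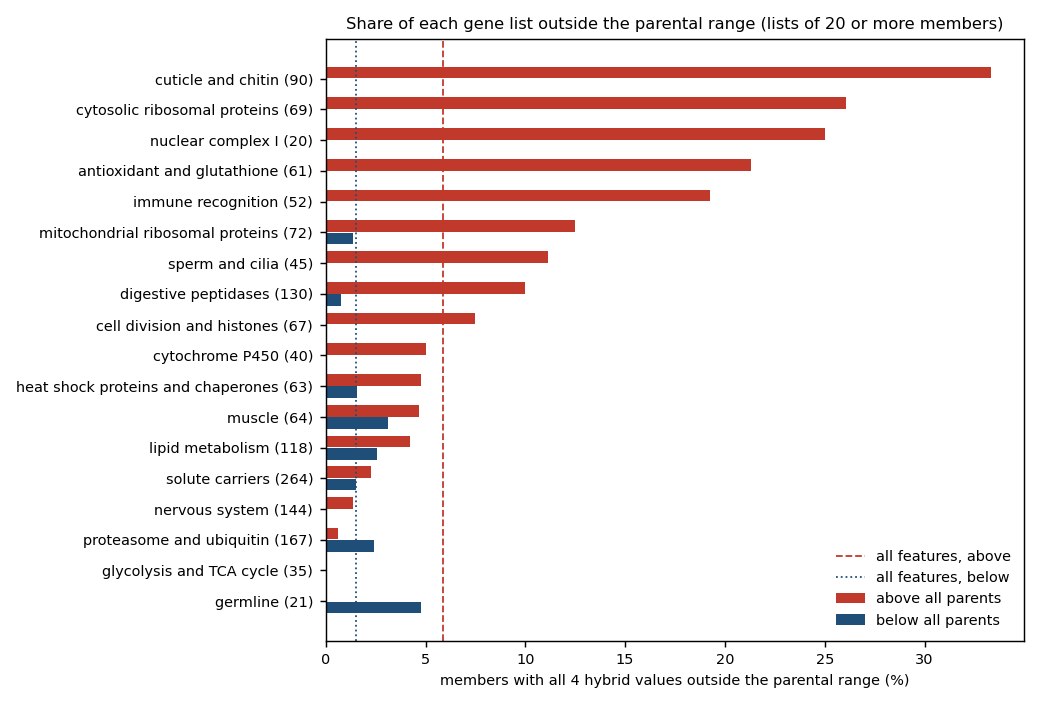
Share of the members of each gene list (horizontal axis, percent; member numbers in brackets) whose 4 hybrid values lay above (red) or below (blue) all 5 parental values, for lists of 20 or more members, with dashed and dotted lines at the shares of all features, 5.86% above and 1.5% below. Cuticle and chitin genes reach 33.3% above, while the proteasome and ubiquitin list has 0.599% above and 2.40% below.

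Among nuclear genes of the respiratory chain, complexes I to V, 9 of 45 members were above all parental values, beside 5.86% of all features, and 1 (2.22%) was below, near the 1.5% of all features. Of the members 2 rose, beside 0.792% of all features. Cytochrome c oxidase subunit 6c (Contig470), a small nuclear subunit of complex IV, had 1664 and 1620.2 RPKM in the SDf x SCNm libraries and 1551 and 2655 in the SCNf x SDm libraries, against 453, 654 and 456 in SD and 281 and 495 in SCN. The hybrids were all far above the parents, with SCNf x SDm replicate 2 highest, and it rose 4.16-fold (log2 2.06, SE 0.32, adjusted p = 0.0237 by limma). Subunit 6a (Contig11416_1) lay above the parents too, at 1065 to 1768 RPKM in hybrids against 383 to 783 in parents, without passing (adjusted p = 0.0970). Subunit 4 (Contig3271), another nuclear subunit of the same complex, ran the other way. It had 330.3 and 377 RPKM in the SDf x SCNm libraries and 397 and 429 in the SCNf x SDm libraries, against 613, 585 and 795 in SD and 804 and 731 in SCN, so that every hybrid was below every parent, but it did not pass (log2 -0.89, SE 0.25, adjusted p = 0.131).

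In complex I the other call was Contig760cap_1, beta subcomplex subunit 4 of NADH dehydrogenase, an accessory subunit of the membrane arm. It had 533 and 330.2 RPKM in the SDf x SCNm libraries and 327 and 674 in the SCNf x SDm libraries, against 109, 174 and 138 in SD and 99.3 and 172 in SCN, and rose (log2 1.72, SE 0.33, adjusted p = 0.0489 by limma). Beta subcomplex 8 (Contig3176) had 486 to 685 RPKM in hybrids against 189 to 291 in parents and did not pass (adjusted p = 0.0797). All 8 beta subcomplex members were above the midparent, 4 of them above all parents, and 6 of 7 alpha subcomplex members were above it. Beta subcomplex 3 (Contig23087, log2 0.02) and 5 (Contig5413, log2 0.01) were barely above it and under the median of all features, 0.15. The 3 iron-sulfur and flavoprotein members, which hold the redox centres, were all below the midparent with a median of -0.46, and none passed. These subdivisions were chosen after the values were seen, and the beta members were short, with a median length of 406.5 bases against 1410.0 for the iron-sulfur and flavoprotein members.

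In complex III, ubiquinol-cytochrome c reductase subunits 9 (Contig6768) and 8 (Contig8301) lay above the range. Contig6768 had 552 to 1060.2 RPKM in hybrids against 251 to 345 in parents, and Contig8301 had 457 to 674 against 208 to 349.9, and neither passed. No member of complex II or V was outside the range. For the iron-sulfur subunit of succinate dehydrogenase (Contig4987) hybrids had 251 to 367 RPKM against 239 to 348 in parents. The gamma subunit of the F-type ATPase (Contig3262) had 332 to 383 RPKM in hybrids, and SCN replicate 2 alone, at 994, stood apart from the other parents at 341 to 457. With median-of-ratios scaling 5 nuclear members of the chain lay above and 2 below the parents, beside 4.19% and 2.85% of all features. None passed with that scaling or with the length trend removed.

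The 13 mitochondrial genes themselves did not leave the parental range. None lay outside it, beside 7.36% of all features, and none passed by limma, beside 0.8%. Of these genes 10 were above the midparent, and the median gene was 0.25 above it. Cytochrome c oxidase subunit 1 (mtDNA_cox1), the catalytic core of complex IV, had 9324 and 13108 RPKM in the SDf x SCNm libraries and 9973 and 11729 in the SCNf x SDm libraries, against 11768, 5686 and 21436 in SD and 23863 and 42078 in SCN. The hybrid values lay within the wide parental span (adjusted p = 0.470). Subunit 3 (mtDNA_cox3) missed the range above narrowly, with 6664 to 11494 RPKM in hybrids against 1796 to 6913 in parents (adjusted p = 0.337). ATP8, a small subunit of the ATP synthase, varied most among hybrids: mtDNA_ATP8 had 949 and 5534 RPKM in the SDf x SCNm libraries and 7212 and 18347 in the SCNf x SDm libraries, against 1058, 411 and 3769.6 in SD and 1030.5 and 5832 in SCN. Together these genes took 6.15 ± 1.29% of summed RPKM in hybrids (SD, n = 4) and 6.35 ± 2.79% in parents (n = 5). The difference was -0.198 percentage points (exact permutation test, two-sided, p = 0.921, where 4 against 5 libraries allow no p below 0.0159).

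Nuclear genes that serve mitochondrial gene expression were mixed. Of 72 mitochondrial ribosomal proteins 9 (12.5%) lay above all parents, beside 5.86% of all features. Below them lay 1 (1.39%), near the 1.5% of all features, and none passed. The member with the widest gap, mRpL20 (SD_Contig68930), had 115 and 95.6 RPKM in the SDf x SCNm libraries and 87.2 and 141 in the SCNf x SDm libraries, against 40.4, 40.9 and 43.7 in SD and 58.3 and 34.3 in SCN. Its hybrids were above all parents, and the difference did not pass (log2 1.30, SE 0.27, adjusted p = 0.0608 by limma). mRpL43 (SD_Contig40886) was the member below, with 17.7 to 23.9 RPKM in hybrids against 27.4 to 45.4 in parents. With the length trend removed 3 mitochondrial ribosomal proteins (4.17%) lay above the parents, near the 4.3% of all features. The 4 genes of mtDNA transcription and replication were all below the midparent, and in each the hybrid values overlapped those of the parents. DNA polymerase gamma (Contig7282), which copies the mitochondrial genome, had 19.2 to 24.4 RPKM in hybrids against 13.4 to 39.4 in parents.

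**Figure D4:**
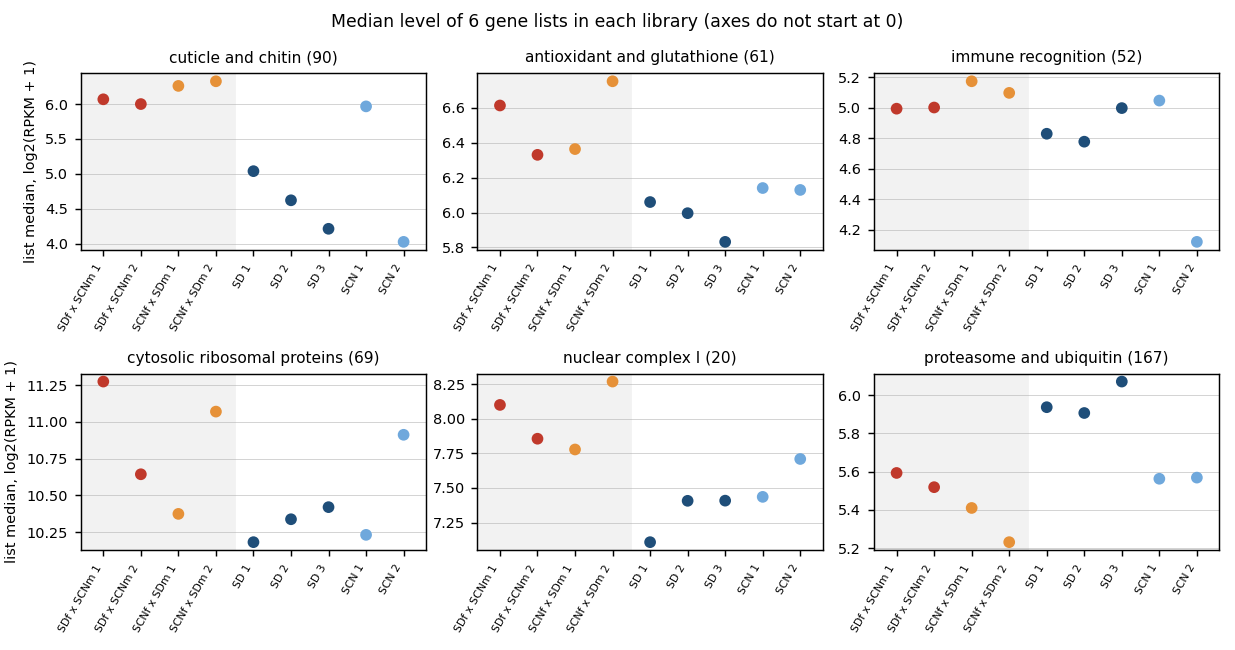
Median log2(RPKM + 1) over the members of 6 gene lists (member numbers in brackets) in each library, hybrids on the grey ground at the left and parents at the right; the axes do not start at 0. In the antioxidant and glutathione panel the hybrids lie at 6.33 to 6.75 and the parents at 5.83 to 6.14, without overlap, while in the immune recognition, cytosolic ribosomal and proteasome panels the groups overlap.

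The remaining lists held at most 1 call each. Over all features 5.86% lay above and 1.5% below the parents. Of 130 digestive peptidases 13 lay above all parents and 1 below, and none passed. The chymotrypsin-like proteinase Contig1066cap, of a family of gut proteases, had 869 and 883 RPKM in the SDf x SCNm libraries and 538 and 1277 in the SCNf x SDm libraries, against 439, 208 and 153 in SD and 369.7 and 163 in SCN, with SD replicate 1 the nearest parent (adjusted p = 0.0806 by limma). Without SCN replicate 1, 37 peptidases lay above the remaining parents. Of 40 cytochrome P450 oxidases 2 lay above, a share near that of all features, and none passed. A group 3 secretory phospholipase A2 (Contig41004), which cuts phospholipids, was the call among 118 lipid metabolism genes, with 16.5 and 14.6 RPKM in the SDf x SCNm libraries and 19.1 and 19.9 in the SCNf x SDm libraries, against 3.69, 4.99 and 1.74 in SD and 6.57 and 2.97 in SCN. It had no reads in at least 1 library, and the values still did not overlap (log2 1.93, SE 0.33, adjusted p = 0.0340). The y+L amino acid transporter 2 (Contig8246), which exchanges cationic and neutral amino acids, was the call among 264 solute carriers, a list with a median of -0.05 and 119 members above the midparent. It had 46.3 to 65.7 RPKM in hybrids against 10.9 to 29.4 in parents (log2 1.61, SE 0.30, adjusted p = 0.0472).

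Among markers of stage, sex and tissue, intraflagellar transport protein 122 (Contig14540), part of the machinery that builds cilia, was the call. It had 24.1 and 36.8 RPKM in the SDf x SCNm libraries and 68.3 and 69.2 in the SCNf x SDm libraries, against 8.90, 15.6 and 10.2 in SD and 8.96 and 2.69 in SCN, with every hybrid above every parent (log2 2.43, SE 0.35, adjusted p = 0.0237 by limma). Its fewest reads in any library were 1. Longer contigs named for the same protein overlapped the parents and did not pass. Contig19616 had 7.82 to 11.3 RPKM in hybrids against 3.37 to 8.71 in parents (adjusted p = 0.434 by limma). Contig19630 had 3.72 to 10.8 against 0.931 to 8.21 (adjusted p = 0.518). Contig14540 belonged to 45 sperm and cilia genes, 5 of which (11.1%, beside 5.86% of all features) lay above all parents. Among them were the transport proteins 43 (Contig16857), 57 (Contig14240) and 52 (Contig21826), with as few as 7, 5 and 1 reads in a library. None of these 3 passed (adjusted p = 0.142, 0.272 and 0.208 by limma). Of the 45 members 34 were above the midparent, while others, such as the axonemal dynein heavy chain Contig1774cap (log2 -0.62), were below it. With quantile normalization 1 member lay above the parents and 2 below, and the list median was -0.06. Of 67 cell division and histone genes 5 (7.46%) lay above, near the 5.86% of all features, and none passed. The 5 included 3 of the 4 features named as D-type cyclins, which drive entry into the cell cycle. Cyclin D2-like Contig27150 had 18.6 to 25.1 RPKM in hybrids against 4.48 to 13.9 in parents. The cyclin group was chosen after the values were seen.

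The summed RPKM of each marker list overlapped between hybrids and parents. On the log2 scale it was 14.69 to 15.26 in hybrids against 11.97 to 15.13 in parents for 9 yolk genes, 10.27 to 10.45 in hybrids against 9.72 to 10.38 in parents for sperm and cilia, and 10.81 to 11.30 in hybrids against 11.14 to 11.95 in parents for 21 germline genes. It was 12.53 to 13.44 in hybrids against 12.05 to 13.98 in parents for cell division and histones, 14.73 to 15.08 in hybrids against 14.79 to 15.94 in parents for 64 muscle genes and 13.26 to 13.51 in hybrids against 13.12 to 14.01 in parents for 144 nervous system genes. No marker was listed at 0, because an added constant keeps every value above it. Their part in the results given here was not tested. The yolk protein precursor vitellogenin (Contig1764cap) had 10806 and 7147 RPKM in the SDf x SCNm libraries and 7403 and 7858 in the SCNf x SDm libraries, against 3655, 4569.7 and 4262 in SD and 8155 and 1551 in SCN, with SCN replicate 2 lowest and SCN replicate 1 within the hybrid span.

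Below the parents the gaps were narrow and no feature of the range list passed. The widest named gap, 0.90, was that of a lipin 1-like phosphatidate phosphatase (Contig1014), which makes the diacylglycerol used for fat storage and membranes. It had 64.2 and 68.6 RPKM in the SDf x SCNm libraries and 73.2 and 48.5 in the SCNf x SDm libraries, against 141, 137 and 192 in SD and 144 and 139.9 in SCN. The parents lay close together apart from SD replicate 3, and all hybrids were below them, 2.34-fold under the midparent without passing (log2 -1.23, SE 0.25, adjusted p = 0.0562 by limma). Troponin I (Contig1745cap), the inhibitory subunit of the muscle thin filament, had 281 and 124 RPKM in the SDf x SCNm libraries and 141 and 189.7 in the SCNf x SDm libraries, against 383, 393 and 636 in SD and 587 and 637 in SCN (log2 -1.59, SE 0.32, adjusted p = 0.0562). A tropomyosin contig (Contig779cap) was also below, with 77.2 to 86.3 RPKM in hybrids against 108 to 181 in parents, but another tropomyosin contig (Contig5890) was above, with 301 to 717 against 99.2 to 284. Of 64 muscle genes 3 (4.69%) lay above and 2 (3.12%) below, beside 5.86% and 1.5% of all features. The balance moved with processing. With the length trend removed 0 lay above and 5 below, beside 4.3% and 2.76% of all features. With quantile normalization 0 lay above and 3 below, beside 3.76% and 4.37%. With median-of-ratios scaling 1 lay above and 5 below, beside 4.19% and 2.85%.

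Other single features below the parents had varied roles. The FXR1-like protein (Contig2420), an RNA-binding regulator of translation, had 38.6 and 38.1 RPKM in the SDf x SCNm libraries and 38.2 and 22.3 in the SCNf x SDm libraries, against 134, 77.1 and 137 in SD and 56.9 and 227 in SCN. SCNf x SDm replicate 2 was lowest, and SCN replicate 1 was the parent nearest to the hybrids (log2 -1.73, SE 0.41, adjusted p = 0.0828 by limma). LSM14 homolog A (Contig29), a component of cytoplasmic mRNA granules, had 224 to 455 RPKM in hybrids against 536 to 1782 in parents (adjusted p = 0.0835). Cyclin L (Contig22792), a partner of kinases that act in splicing, had 12.4 to 17.9 against 21.9 to 77.1.

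Other named features with wide gaps below were a serine threonine protein (Contig3583, 12.4 to 21.4 RPKM in hybrids against 32.8 to 78.4 in parents) and GPI mannosyltransferase 4 (Contig5075), which adds mannose to the lipid anchor of surface proteins. This transferase had 11.9 to 20.9 RPKM in hybrids against 31.4 to 44.8 in parents. The small GTPase ARL2 (Contig570cap), which acts in tubulin folding, had 18.0 to 29.0 against 38.2 to 70.5, and monocarboxylate transporter 10 (Contig5026), an amino acid carrier, had 48.2 to 52.2 against 69.5 to 116. None of these passed. The proteasome and ubiquitin list had 1 of 167 members (0.599%) above the parents, beside 5.86% of all features, and 4 (2.40%) below, near the 1.5% of all features. Its median was -0.15 against 0.15 for all features. Of the members below, all of them E3 ubiquitin ligases, which attach ubiquitin to chosen proteins, MARCH6 (Contig9549), a ligase of the endoplasmic reticulum, had the widest gap, 0.39. It had 36.4 and 40.5 RPKM in the SDf x SCNm libraries and 41.0 and 29.4 in the SCNf x SDm libraries, against 83.3, 53.9 and 125 in SD and 61.6 and 148 in SCN, with every hybrid under every parent. Glycolysis and TCA cycle genes (35 members, median -0.15) had none outside, beside 5.86% above and 1.5% below among all features. Germline genes (21, median -0.25) had 0 above and 1 (4.76%) below, beside 5.86% and 1.5% of all features. The member below was a contig of 324 bases named vasa intronic isoform a (Contig803). It had 274 to 538 RPKM in hybrids against 575 to 999.9 in parents. The word vasa in its name put it on the list, which does not show that it is vasa itself. A separate feature named vasa-like protein (Contig1018, 1503 bases), after an RNA helicase of germ cells, overlapped the parents. Its values were 373 to 509 RPKM in hybrids against 416 to 768 in parents. Of 63 heat shock proteins and chaperones 3 (4.76%) lay above and 1 (1.59%) below, near the 5.86% and 1.5% of all features. None of them passed, and the median was -0.02.

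Features without a protein name were common above the parents. They made up 39.95% of the 806, 12.1% of the 206 and 27.7% of all features. Contig5183 had 513 and 519 RPKM in the SDf x SCNm libraries and 496 and 501 in the SCNf x SDm libraries, against 37.9, 71.5 and 4.57 in SD and 145 and 23.9 in SCN. The hybrid values were almost equal and the parental ones spread widely, and it did not pass (log2 3.71, SE 0.73, adjusted p = 0.0513 by limma). Contig41901 (log2 2.93) and Contig10878 (log2 2.92), with the next widest gaps among unnamed features, rose. The single called fall, the unnamed Contig3301, was not below the range. It had 212 and 98.0 RPKM in the SDf x SCNm libraries and 46.7 and 107 in the SCNf x SDm libraries, against 179, 171 and 613 in SD and 955 and 2659 in SCN, so that SDf x SCNm replicate 1 lay above 2 of the SD libraries (log2 -2.68, SE 0.51, adjusted p = 0.0472).

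Against each parent alone the calls were uneven, and SD had 3 libraries where SCN had 2. Hybrids were above SD in 209 features (1.52%) and below it in 11 (0.08%), and above SCN in 2 (0.0145%) and below it in 0 (0%), at an adjusted p under 0.05 by limma. At an unadjusted p under 0.05, 2628 features (19.1%) differed from SD and 2100 (15.3%) from SCN. No feature passed against both parents in one direction at an adjusted p under 0.05 (0%). At an unadjusted p under 0.05 against both, 690 features (5.02%) did, of which 616 features were above (4.48%) and 74 below (0.538%). For obstructor (Contig19526) the difference was 3.68 against SD and 2.85 against SCN, for the lectin (Contig11276) 3.09 and 2.61, for cytochrome c oxidase subunit 6c (Contig470) 1.83 and 2.29, and for the lipin 1-like phosphatase (Contig1014) -1.29 and -1.16. These comparisons share the hybrid libraries. Among the 806 features above the parental range the median difference was 1.12 against SD and 1.17 against SCN. Of these features 121 passed against SD and 0 against SCN. Over all features the medians were 0.02 and 0.29. The counts of calls therefore do not show that hybrids differ less from SCN than from SD. Without SCN replicate 1 the SCN group would be replicate 2 alone, so calls from that fit are not set beside these.

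Hybrids were intermediate in most features that part the populations. Over all features the hybrid mean lay above both parental means in 39.6%, between them in 40.01% and below both in 20.4%. SD was above SCN in 24 features (0.174%) and below it in 35 (0.254%) by limma at an adjusted p under 0.05, and 2411 (17.5%) differed at an unadjusted one. Of these 59, the hybrid mean was between the parental means in 49, above both in 10 and below both in 0. Of the 24 higher in SD, 22 were between, 18 of them nearer to SD, and of the 35 higher in SCN, 27 were between, 19 of them nearer to SCN. The hybrid mean was thus more often nearer to the higher parent on the log2 scale, a description without a test, since parental libraries enter both the choice and the place. Only 1 of the 59, Contig6819, had all 4 hybrid values outside the parental range.

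The crosses were also set against the parents one at a time. Taken alone, the SDf x SCNm libraries lay above all parents in 1124 features and below in 284, and the SCNf x SDm libraries in 1581 and 638. Among the 806 features above, the SCNf x SDm mean was higher than the SDf x SCNm mean in 549, and among the 206 below it was lower in 173. Over all features the SCNf x SDm mean was higher in 5952 and the SDf x SCNm mean in 7806. Between the crosses limma called 0 features, and 39 of 13758 had an unadjusted p under 0.05, fewer than such a threshold lets through by chance. The fit shares its estimate of the spread with the parental groups, and each cross had 2 libraries, so the absence of calls does not show that the crosses agree. SDf x SCNm replicate 1, alone in its run, was the hybrid nearest to the parents in 277 of the 806 and in 92 of the 206. SCN replicate 1 was the parent nearest to the hybrids in 400 of the 806, and SD replicate 2 in 181.

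Contig length moved with the position of hybrids against the parents. Lengths recovered from the RPKM steps, a multiple of 3 in 91.6% of features, had a median of 502.5 bases above the range, 1203.5 below it and 839.5 over all features. In 10 length classes of about equal size, hybrids lay above all parents in 7.89% of the shortest class, 10.998% of class 3, the highest share, and 0.291% of the longest, and below them in 1.43% of the shortest and 2.62% of the longest. SCN replicate 2 moved with length most: its median log2(RPKM + 1) was 4.40 in the shortest class and 3.56 in the longest. In the longest class the hybrids had 4.32 to 4.91 and the other parents 4.87 to 5.15. With a smooth length trend removed from each library, 591 features (4.3%) lay above and 379 (2.76%) below the parents, and by limma 66 rose and 1 fell, 64 of them among the 110 calls as deposited. The share above was then 4.87% in the shortest class, 6.05% in class 3, again the highest, and 2.69% in the longest. This alternative was added after the data were seen.

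**Figure D5:**
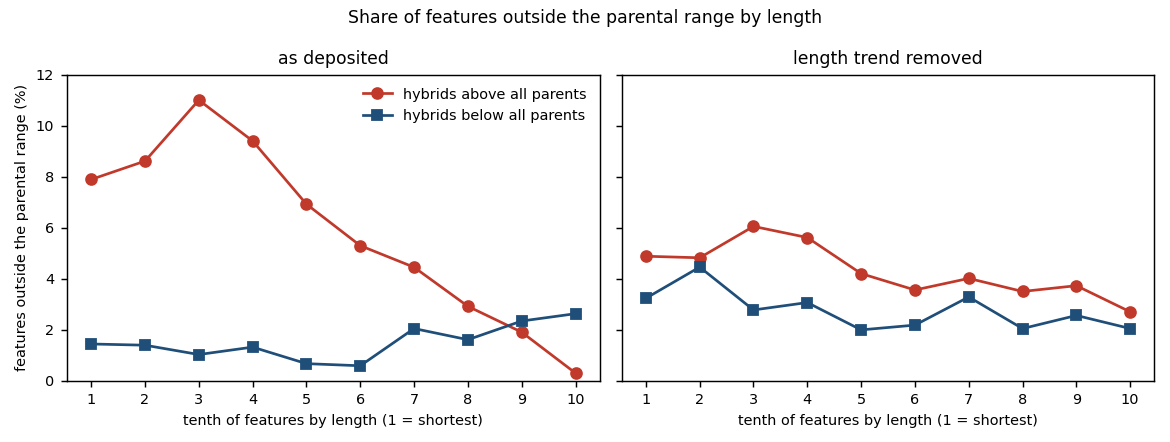
Share of features (vertical axis, percent) with all 4 hybrid values above (red circles) or below (blue squares) all 5 parental values, by class of contig length (10 classes) from shortest to longest, as deposited (left) and with a length trend removed from each library (right). As deposited the share above is 7.89% in the first class, highest in class 3 and 0.291% in the last, and with the trend removed it is 4.87%, again highest in class 3, and 2.69% in the last.

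Of the 806 features above the parents, 265 (32.9%) had at least 10 reads in all 9 libraries, beside 57.0% of all features. A library with 0 reads was found in 23.9% of the features above, beside 12.9% of all features. Their median RPKM was 34.1 in hybrids against 13.5 in parents. Of the 206 below, 177 had at least 10 reads everywhere, and the medians were 32.4 in hybrids against 60.5 in parents. Since 1 is added to each value, a fold change on the log2(RPKM + 1) scale is smaller than the ratio of the RPKM values in weakly expressed features.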

How the data were processed

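The authors deposited RPKM per feature for 9 libraries, per the file headers; the sources used here give no aligner, counting method or filter. Gene names come from the deposited protein names, and contigs carry the SD identifier without its assembly prefix. None of the contigs matched the RefSeq gene table of another assembly (0 matches). RPKM steps gave whole reads and contig lengths for 13742 of 13758 features (99.9%), with 99.98% of values within 0.05 read of a whole number after a constant of 1.12 to 18.4 reads per library was taken off. These served depth, lengths and alternatives only.

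The test was limma (version 3.58.1, R version 4.3.3) with a mean-variance trend on log2(RPKM + 1), fitted to all 9 libraries with 4 group means and adjusted over 13758 features. A minimum mean of 1 RPKM removed 0 features. Gene lists (26) were matched on words in protein names and are described by counts and medians. The naming rule, from which the text draws, took, among features with informative names, the 12 on each side with the largest changes (or smallest p where fewer passed), the 8 with the widest gaps on each side, 2 members per list by p, 3 unnamed features per side, rare calls and 6 mitochondrial genes; other members are named from the list tables after their values were seen. Members and lists were chosen with earlier results of these data known. The alternatives were other pseudocounts, filters, scalings, midparents and fits, left-out libraries and a length correction. The code was tested on simulated data.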

Additional observations from a re-analysis of the deposited data

Results flagged for a closer look

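In sets of 4 hybrid or 5 parental values, 1 library stood apart from the rest in 13 of 128 sets tested by Dixon's 95% criterion, where chance flags about 1 in 20. Values here are log2(RPKM + 1). Among hybrids, SCNf x SDm replicate 2 stood apart in obstructor (Contig19526) at 8.66 against 7.45 to 7.50 in the other hybrids, in the cuticle protein Contig31846 at 7.94 against 7.22 to 7.33, in the FXR1-like gene (Contig2420) at 4.54 against 5.29 to 5.31, and in cytochrome c oxidase subunit 6c (Contig470) at 11.37 against 10.60 to 10.70. SDf x SCNm replicate 1 stood apart in peptidyl-prolyl cis-trans isomerase A (Contig29256) at 4.91 against 6.04 to 6.24, in cuticle protein 5a (Contig23995) at 6.59 against 7.89 to 8.06, and in the F-box SPRY protein (Contig8666) at 3.90 against 3.41 to 3.48. SCNf x SDm replicate 1 stood apart in cuticle protein 7 (Contig78214) at 11.73 against 11.41 to 11.45.

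Among parents, SD replicate 3 stood apart in the lipin 1-like gene (Contig1014) at 7.59 against 7.11 to 7.18 in the other parents, and in the cuticle protein Contig220 at 6.17 against 8.93 to 9.40. SD replicate 2 stood apart in Contig8666 at 3.80 against 5.07 to 5.16. SCN replicate 2 stood apart in the list median of nuclear complex V, at 9.94 against 8.42 to 8.85, and in that of sperm and cilia genes, at 2.01 against 2.88 to 3.18.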

How the results depend on the processing

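The 110 calls against the midparent became 170 with quantile normalization, 193 when 5 replaced 1 as pseudocount, 209 with 2 groups in place of 4, 39 against an arithmetic midparent, 13 at 1 depth, 27 with the added constant taken off and 67 with the length trend removed. Leaving out 1 library gave 0 to 2985 calls, and the causes were not tested. The 1012 features outside the parental range became 1909 without both run 3 libraries and 1732 with the length trend removed and those libraries left out, where fewer parental values bound the range, and ranged over 1107 to 2421 with 1 library left out. Features called against both parents numbered 0 to 632 in those fits and 0 in the other settings. Of features called between SD and SCN, those with hybrids between the parents were 49 as reported, 82 with quantile normalization, 29 with voom on recovered reads, 7 at 1 depth, 75 with the length trend removed, 129 with run 3 also left out, and 7 to 2123 with 1 library left out. In each range of calls with 1 library left out, the upper end came from the fit without SCN replicate 1. That fit keeps 1 library in the SCN group, so its counts cannot be compared with the others. Fits without SCN replicate 2 or a hybrid library also keep 1 library in a group. Replicate numbers did not pair the libraries, with correlations of replicate differences between groups from -0.5504 to 0.359. A fit with the number as a block called 55 features, 38 of them among the 110, and left 7 of the features between the parents.

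The mitochondrial share, -0.198 percentage points in hybrids minus parents, changed sign with quantile normalization (0.458), without both run 3 libraries (1.33), at 1 depth (0.199), with the constant taken off (0.218) and with the length trend removed (0.184), and lay between -1.13 and 0.668 with 1 library left out; none of these differences passed. Among 83 named features and 25 alternatives, 1688 of 2060 values kept their direction and side of the threshold, 256 lost the threshold, 109 gained it and 7 reversed: mtDNA_nad1 (-0.078) and mtDNA_nd4L (-0.018) with quantile normalization, succinate dehydrogenase iron-sulfur subunit Contig4987 with median-of-ratios scaling (-0.048), with the length trend removed (-0.036) and without SDf x SCNm replicate 1, where 1 library left out gave -0.019 to 0.25, globin D (Contig15833) without both run 3 libraries (-0.10), and succinate dehydrogenase anchor subunit Contig715cap without SCN replicate 1, where 1 library left out gave -0.0057 to 0.668.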

Other observations

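A few features passed against the midparent while their values overlapped the parental range. There were 12 such features above, 9 of them unnamed, and their values are a description. The oxidoreductase Contig4724 had 223 and 238 RPKM in the SDf x SCNm libraries and 355 and 455 in the SCNf x SDm libraries, against 9.24, 18.1 and 10.5 in SD and 310.1 and 532 in SCN, so that the hybrids lay around SCN and far above SD. Peptidyl-prolyl cis-trans isomerase A (Contig29256), a protein-folding enzyme, had 29.0 and 73.5 RPKM in the SDf x SCNm libraries and 64.9 and 74.4 in the SCNf x SDm libraries, against 4.60, 6.44 and 9.29 in SD and 31.2 and 5.62 in SCN, where SCN replicate 1 exceeded the lowest hybrid.

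Named features outside the lists also rose above all parents. A chemosensory protein (Contig2468) had 71.8 to 112 RPKM in hybrids against 10.6 to 37.8 in parents (log2 2.01, limma adjusted p = 0.0237), and a carbohydrate sulfotransferase 11-like enzyme (Contig27587) had 13.3 to 15.8 against 1.88 to 7.61 (log2 1.57, adjusted p = 0.0353). A vesicle coat complex subunit (Contig25834) had 66.6 to 197 against 12.0 to 49.6 (log2 2.59, adjusted p = 0.0270). Of 305 features named as zinc fingers, 14 (4.59%) lay above all parents and 2 (0.656%) below, both under the 5.86% and 1.5% of all features. Contig4724, Contig2468, Contig27587 and the zinc finger group were chosen after their values were seen.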
